A study of Mus musculus with 7 samples.

Results

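Matrix metalloproteinases, their tissue inhibitors and the ADAMTS proteases were followed in left atria that overexpressed FOG2. The set was every gene row of the count table whose symbol begins with Mmp, Timp or Adamts (the first 2 followed by a digit): 51 of 24421 genes, made up of 23 Mmp, 4 Timp, 19 Adamts and 5 Adamtsl genes. RNA sequencing measured 4 libraries labelled FOG2 Overexpression and 3 labelled WT, all from left atria of grown mice of the outbred strain CD1, and all from animals kept off doxycycline for 1 week. The protocol calls the animals DTG and NTG without spelling these out. The promoter and cells that drive FOG2, and the sex, litter and batch of the animals, are not given in the labels, nor is it stated that each library is 1 animal. FOG2, encoded by Zfpm2, is a cofactor of GATA transcription factors, and the study placed it in an atrial gene network of TBX5 and GATA4.

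The matrix metalloproteinases (MMPs) are zinc enzymes that are made as inactive precursors and together cut most proteins of the extracellular matrix. The tissue inhibitors of metalloproteinases (TIMPs) bind their active site, and the balance of both sets how fast cardiac matrix turns over. The ADAMTS enzymes are secreted zinc proteases with thrombospondin repeats. Some trim procollagens, some cut proteoglycans such as versican, and some act on fibrillin microfibrils. ADAMTS-like proteins share the repeats but lack the protease domain. In the heart these genes are made largely by fibroblasts and other stromal cells, and several are needed for valve and septum formation.

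Values are CPM, the read count of a gene divided by the library's total after TMM scaling. Gene totals ranged from 5562520 to 8655655 reads per library, so 1 read stood for 0.111 to 0.174 CPM. Zfpm2 stood at 29.4 to 31.7 CPM in wild type and 140.1 to 262 in overexpression, lowest in overexpression replicate 1. That replicate also stood apart across all genes, with correlations of 0.958 to 0.959 to the other 3 overexpression libraries, which correlated with each other at up to 0.988. It held 4908 reads of 4 Y-linked genes and wild type replicate 2 held 3943, against 0 to 4 in the other 5 libraries. Such reads mark male tissue, so sex differed within both groups. Within the overexpression group, sex and whatever else sets replicate 1 apart cannot be told apart. Leaving that replicate out keeps wild type replicate 2 in, so sex is then unequal between the groups. Results are therefore given with all 7 libraries and without overexpression replicate 1. As a check for heart muscle, 10 cardiomyocyte markers were read and were present in all libraries. They summed to 88181 to 101301 CPM in wild type and 55276 to 73392 CPM in overexpression. No list of ventricular markers was read beside them, so the sum does not check the chamber. In bulk tissue, fewer cells of a type and less RNA per cell cannot be told apart.

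Adamts19, Adamts6, Adamts3 and Adamtsl5 fell with FOG2 overexpression and Adamtsl1 rose. No Mmp or Timp gene passed the test; 5 Mmp genes (Mmp2, Mmp9, Mmp14, Mmp15 and Mmp23) and 0 Timp genes had an unadjusted p under 0.05, and DESeq2 called Mmp9 lower. Of the 51 genes, 36 passed the filter on low counts and 15 did not. The 5 called genes were 13.9% of the 36 tested, at an adjusted p under 0.05 in edgeR's quasi-likelihood test over all 13295 tested genes, of which 4.84% were called. Without overexpression replicate 1, 35 of the 51 were tested and 5 fell (Adamts19, Adamts6, Adamts3, Adamtsl5 and Adamts8) while 0 rose (9 had a higher level at an unadjusted p under 0.05, and DESeq2 called 5 higher), a share of 14.3% where 8.73% of all genes were called. The median log2 fold change of the tested genes was 0.11 with all libraries and 0.02 without replicate 1, beside 0.02 and 0.01 for all genes. These medians cover 36 and 35 genes of the set, and the lower value depended on the filter. Without replicate 1 the set's median was 0.12 with a filter of 1 CPM in 3 libraries (37 genes). With no filter it was 0.11 (48 genes). The number that fell was 2 without wild type replicate 1 or 2 or overexpression replicate 4. Groups did not overlap in 11 of the 36 (30.6%, beside 19.8% of all genes). Every overexpression library was above every wild type library for 6 (8.99% of all genes), Mmp23, Timp1, Adamts14, Adamts20, Adamtsl1 and Adamtsl2, and below for 5 (10.8% of all genes), Adamts3, Adamts6, Adamts19, Adamtsl4 and Adamtsl5. Adamts20, counted among these, passed the filter on low counts only through the overexpression group, where it was higher.

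**Figure D1:**
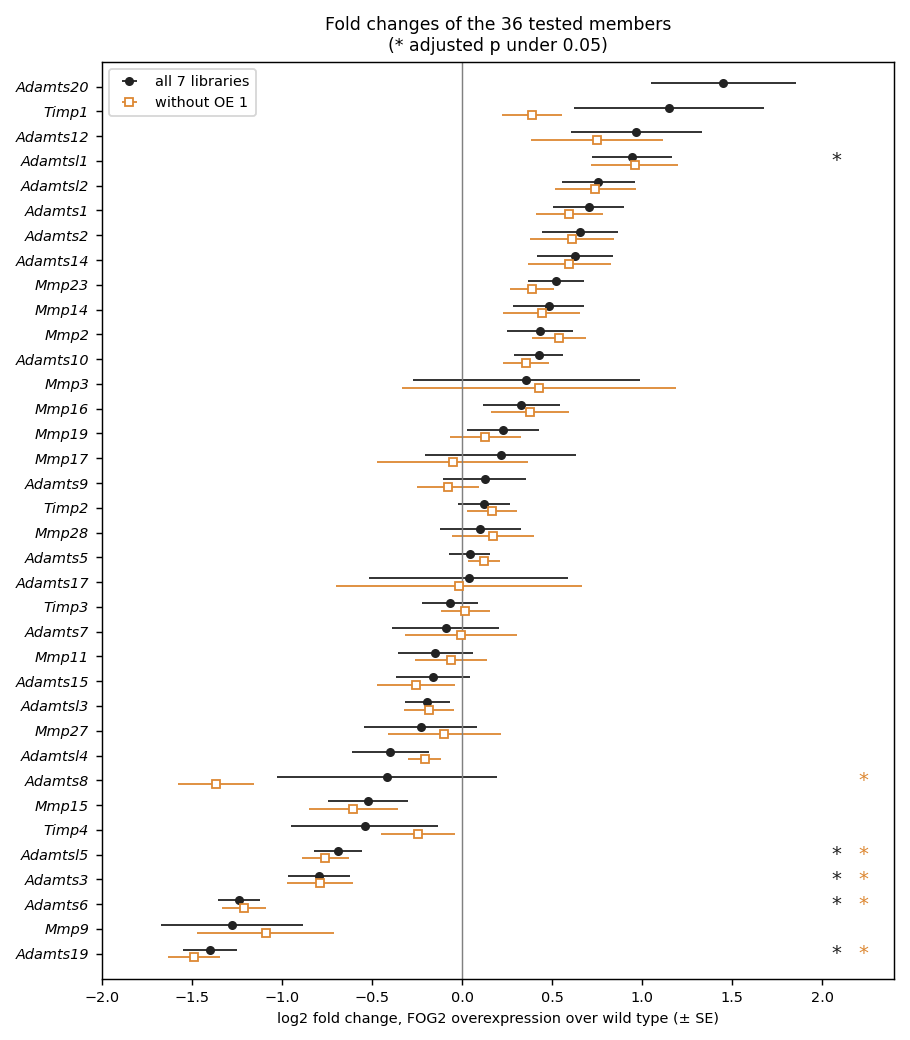
Log2 fold changes (x axis, ± SE) of the 36 tested genes with all 7 libraries (filled circles) and without overexpression replicate 1 (open squares), with asterisks at an adjusted p under 0.05. Adamts8 and Timp1 move most between the fits, from -0.42 to -1.36 and from 1.15 to 0.39, while Adamts19 (-1.40 and -1.49) and Adamts6 (-1.24 and -1.21) barely move.

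Among the genes called with all 7 libraries, Adamts6 and Adamts19 fell furthest. Adamts6, a protease of the fibrillin-directed branch whose loss disturbs heart development in mice, stood at 33.9, 30.5 and 32.6 CPM in wild type replicates 1 to 3. In overexpression replicates 1 to 4 it stood at 12.9, 15.6, 12.9 and 13.4 CPM. The groups were far apart and the 4 overexpression libraries lay close together, replicate 1 among them. The fold change was 2.36-fold lower, a log2 fold change of -1.24 ± 0.12 (SE, adjusted p = 4.75e-04), and -1.21 ± 0.12 without replicate 1 (adjusted p = 1.79e-04). The gene spans 104287835 to 104496695 on chromosome 13 of mm10, plus strand.

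Adamts19, an enzyme whose loss causes heart valve disease in mice and people, was at 36.3, 36.01 and 42.6 CPM in wild type and at 16.9, 16.3, 12.0 and 12.6 CPM in overexpression. Here too no overexpression library came near the lowest wild type value. It was 2.64-fold lower (log2 fold change -1.40 ± 0.15, SE, adjusted p = 9.95e-04), and 2.81-fold lower without replicate 1 (-1.49 ± 0.14, adjusted p = 1.18e-04). Both genes passed the test in each of the 18 alternative fits, with log2 fold changes from -1.31 to -1.12 for Adamts6 and from -1.53 to -1.28 for Adamts19. All 10 cardiomyocyte markers had negative log2 fold changes beside these 2, with a median of -0.46 and 4 called lower (Myl7, Sln, Ryr2 and Pln). Of 10 vascular endothelial markers, 8 were negative and 2 positive, with a median of -0.06 and 0 called. Of 7 tested endocardial markers, 5 were negative and 2 positive, with a median of -0.16 and 1 called higher. Without overexpression replicate 1, 1 vascular endothelial and 2 endocardial markers were called lower and 1 endocardial marker higher. The part of these cell types in the decrease was not tested.

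The closest relatives of these enzymes gave other values. Adamts10, the sister gene of Adamts6 and a fibrillin-binding protease, held 82.3, 76.1 and 91.0 CPM in wild type, against 127, 110.5, 121 and 87.7 CPM in overexpression. Only overexpression replicate 4 lay within the wild type range, and the log2 fold change of 0.43 ± 0.14 (SE) did not pass (adjusted p = 0.128, or 0.0482 without overexpression replicate 4). Adamts17, the sister gene of Adamts19, was split within both groups, at 11.4, 4.24 and 14.3 CPM in wild type, against 10.9, 11.3, 16.5 and 3.03 CPM in overexpression. Its log2 fold change was 0.04 with a 95% interval from -1.23 to 1.30, so these libraries bound it poorly. Adamts16 and Adamts18 had 1 and 3 reads in all libraries together. The difference between sister genes was not tested.

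**Figure D2:**
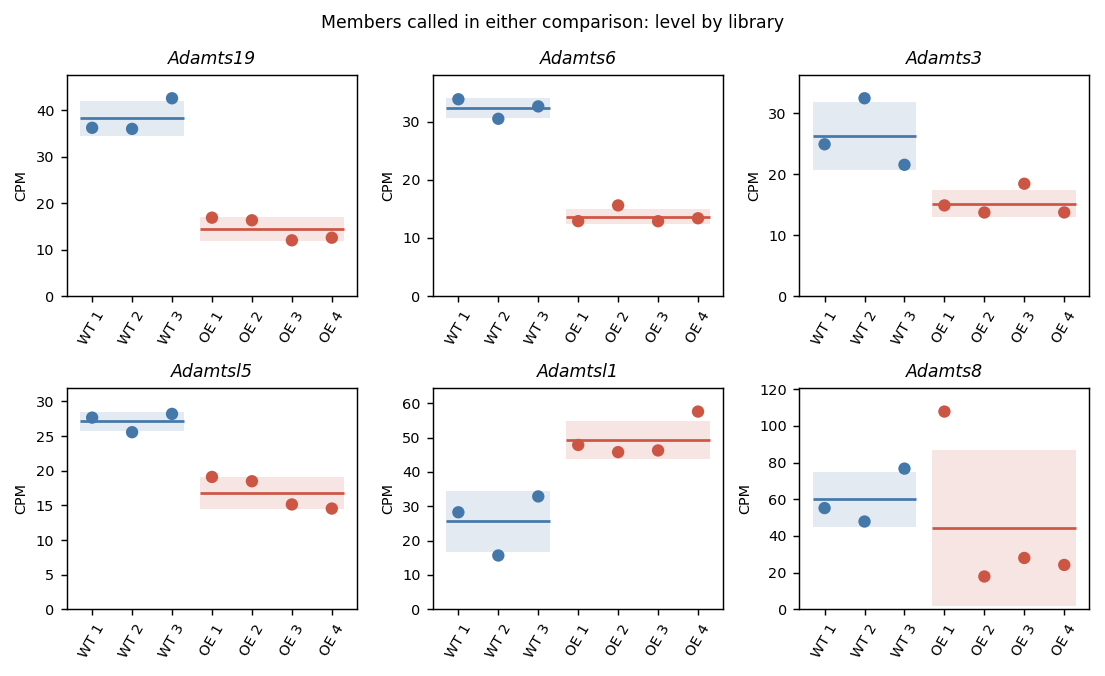
CPM (y axis, from 0) in each library for the 6 genes called in either comparison, wild type in blue and overexpression in red, with the group mean as a line and ± SD as a band. In Adamts8 overexpression replicate 1 lies at 107.8 CPM above all wild type libraries, and replicates 2 to 4 lie below them.

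The procollagen N-proteinases remove the amino-terminal propeptide of fibrillar collagens before fibrils form. Adamts3, which acts on type II procollagen and also activates the lymphatic growth factor VEGF-C, fell from 24.9, 32.5 and 21.6 CPM in wild type to 14.9, 13.7, 18.4 and 13.7 CPM in overexpression. Overexpression replicate 3 was the highest of its group and still under the lowest wild type library. It was 1.74-fold lower, a log2 fold change of -0.80 ± 0.17 (SE, adjusted p = 0.0327, or 0.0222 without overexpression replicate 1). The call was lost without wild type replicate 1 (adjusted p = 0.0992) or 2 (0.141) and without overexpression replicate 2 (0.0846) or 4 (0.0870). It had an adjusted p = 0.0518 with library totals as the only scaling and 0.0711 in the 5 libraries without Y-linked reads.

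Adamts2, the main N-proteinase of type I procollagen, stood at 103, 91.2 and 157 CPM in wild type, against 201, 200.6, 200.4 and 137 CPM in overexpression. Wild type replicate 3 was above overexpression replicate 4, so the groups overlapped. The log2 fold change of 0.66 ± 0.21 (SE) had an adjusted p = 0.130, and 0.0398 without wild type replicate 3. Adamts14, the third enzyme of the kind, was low but tight, at 2.97 to 3.58 CPM in wild type and 4.70 to 5.33 CPM in overexpression (0.63 ± 0.21, adjusted p = 0.143). Bmp1, which removes the other propeptide of the same collagens, rose from 68.6 ± 3.45 to 96.6 ± 8.57 CPM (SD, n = 3 and 4; log2 fold change 0.49 ± 0.10, SE, adjusted p = 0.0256).

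Adamts3 and Adamtsl5 are shown by the 250 bases before their start site, since they are the genes that fell for which the RefSeq promoter table (GRCm38.p6) was matched; it matched 36 of the 51. Capitals mark GGGCGG or its reverse complement, a GC box of the SP and KLF factors, which is present in this stretch for 20 of the 36 matched genes and in 32.7% of 32851 such stretches of all genes. Adamts3 lies on the minus strand at chr5:89883335-89883584 and Adamtsl5 on the minus strand at chr10:80348449-80348698.
Adamts3: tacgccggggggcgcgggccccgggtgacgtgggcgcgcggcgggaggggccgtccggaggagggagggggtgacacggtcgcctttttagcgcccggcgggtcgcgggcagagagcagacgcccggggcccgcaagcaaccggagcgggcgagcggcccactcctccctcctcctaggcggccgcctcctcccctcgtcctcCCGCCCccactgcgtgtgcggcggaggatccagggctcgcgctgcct
Adamtsl5: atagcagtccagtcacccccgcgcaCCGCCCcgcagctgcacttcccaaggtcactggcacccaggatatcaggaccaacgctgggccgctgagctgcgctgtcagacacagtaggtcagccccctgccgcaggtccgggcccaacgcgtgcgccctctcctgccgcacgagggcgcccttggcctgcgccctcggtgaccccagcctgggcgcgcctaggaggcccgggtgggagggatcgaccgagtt
No GATA letters were found in these 2 stretches, where AGATAA and its variants with G at the end, T at the front or both were searched on both strands. Of the 36 matched genes 7 held them (26.5% of all stretches), and 0 held the T-box letters AGGTGTGA or their variant AGGTGTCA (1.90% of all stretches). None of the searched motifs contains another, and a match describes letters only.

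The ADAMTS-like genes went both ways. Adamtsl5, whose product binds fibrillin microfibrils, fell from 27.7, 25.6 and 28.2 CPM in wild type to 19.1, 18.5, 15.1 and 14.5 CPM in overexpression. The spread within each group was small beside the gap. The gene was 1.61-fold lower (log2 fold change -0.69 ± 0.13, SE, adjusted p = 0.0204), and 1.69-fold lower without overexpression replicate 1 (-0.76 ± 0.13, adjusted p = 0.00544). The adjusted p was 0.0912, 0.0648 and 0.0700 without wild type replicates 1, 2 and 3, 0.0543 and 0.0529 without overexpression replicates 3 and 4, and 0.0590 with library totals only.

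Adamtsl1, a secreted matrix protein also called punctin, rose from 28.3, 15.7 and 32.9 CPM in wild type to 47.9, 45.8, 46.3 and 57.6 CPM in overexpression. Wild type replicate 2 was the lowest library and overexpression replicate 4 the highest. It was 1.92-fold higher (log2 fold change 0.94 ± 0.22, SE), close to the threshold at an adjusted p = 0.0493. Leaving out wild type replicate 1 gave an adjusted p = 0.140 and replicate 2 gave 0.0621. Without overexpression replicates 1 to 4 in turn it was 0.0510, 0.0850, 0.0931 and 0.104. It was 0.0518 with RLE scaling, 0.0507 with upper quartile scaling and 0.0559 with no filter.

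Adamtsl2, a matrix protein tied to TGF-beta storage, was above wild type in every overexpression library, at 94.3, 81.8 and 148 CPM against 189, 196, 150.1 and 195 CPM. Wild type replicate 3 and overexpression replicate 3 nearly met. Its log2 fold change of 0.76 ± 0.20 (SE) had an adjusted p = 0.0706, which was 0.0112 without wild type replicate 3 and 0.0359 with library totals only. Adamtsl4, a fibrillin-binding protein of the eye's zonule, stood at 54.0, 59.3 and 53.5 CPM in wild type, against 25.0, 50.7, 48.0 and 45.6 CPM in overexpression, with replicate 1 far below the rest (-0.40 ± 0.22, adjusted p = 0.362). Adamtsl3 ranged from 18.1 to 18.4 CPM in wild type and from 14.6 to 18.6 CPM in overexpression.

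The proteoglycan-cleaving enzymes cut versican and aggrecan. Adamts8 split the overexpression group. It stood at 55.2, 47.9 and 76.7 CPM in wild type, at 107.8 CPM in overexpression replicate 1, and at 17.9, 28.0 and 24.2 CPM in replicates 2 to 4. With all 7 libraries the log2 fold change was -0.42 ± 0.61 (SE, adjusted p = 0.758). Without replicate 1 Adamts8 fell 2.58-fold, a log2 fold change of -1.36 ± 0.21 (adjusted p = 0.00584). In the 5 libraries without Y-linked reads it was -1.50 ± 0.20 (adjusted p = 0.00333), a choice made after seeing the data. It spans 30942562 to 30963838 on chromosome 9, plus strand, where its annotated exons share 489 bases with an antisense transcript that is not a row of the table.

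Its neighbour Adamts15 lies on the minus strand from 30899155 to 30922452 and ranged from 79.1 to 103 CPM in wild type and from 57.8 to 105.8 CPM in overexpression. The log2 fold change was -0.16 with a 95% interval from -0.63 to 0.31. Adamts1, the most abundant ADAMTS per length, stood at 148, 175 and 143 CPM in wild type, against 308, 240, 169 and 294 CPM in overexpression. Overexpression replicate 3 fell within the wild type range and the other 3 lay above it. Its log2 fold change was 0.70 ± 0.20 (SE, adjusted p = 0.0850), and 0.85 ± 0.14 without overexpression replicate 3 (adjusted p = 0.0168). Library totals only gave an adjusted p = 0.0359 and DESeq2 0.0119.

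Adamts5, an aggrecanase whose gene sits beside Adamts1 on chromosome 16, ranged from 73.0 to 84.2 CPM in wild type and 68.2 to 88.5 CPM in overexpression, and its 95% interval of -0.21 to 0.30 was the narrowest of this group. Adamts9, another versican-cleaving enzyme, ranged from 25.0 to 38.0 CPM in wild type and from 24.1 to 47.3 CPM in overexpression. Adamts20 held 4 to 6 reads per wild type library and 9 to 18 per overexpression library (log2 fold change 1.45 ± 0.40, SE, adjusted p = 0.0792). It passed the filter only through the overexpression group and was not tested without replicate 1. Adamts4 held 4 to 20 reads per library and was not tested.

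Of the substrates, Vcan (versican) stood at 164 ± 16.8 CPM in wild type and 283 ± 144 CPM in overexpression (SD; 0.79 ± 0.33, SE, adjusted p = 0.240, or 0.0436 without replicate 1). Ncan, a proteoglycan best known from brain, rose from 3 reads over the wild type libraries to 136, 29, 24 and 106 reads in overexpression (adjusted p = 0.00539). It passed the filter on low counts only through the overexpression group. Fbn2, a fibrillin of embryonic matrix, rose from 7.52 ± 3.35 to 68.9 ± 27.2 CPM (3.18 ± 0.42, SE, adjusted p = 0.00460). With all libraries Ncan and Fbn2 were the genes called among 8 tested proteoglycan and 22 tested fibrous substrates, whose median log2 fold changes were 0.39 and 0.81. In overexpression replicate 1 the fibrous substrates had a median of 1.40 above the wild type mean, and 0.22 to 0.36 in the other 3, on the log2(CPM + 2) scale.

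Adamts7 and Adamts12, which cut cartilage oligomeric matrix protein, did not pass. Adamts12 stood at 16.7, 12.4 and 29.8 CPM in wild type, against 53.9, 31.8, 44.9 and 23.7 CPM in overexpression, overlapping at wild type replicate 3 and overexpression replicate 4 (0.97 ± 0.36, SE, adjusted p = 0.195). Adamts7 ranged from 14.3 to 18.5 CPM in wild type, and in overexpression was at 26.1 CPM in replicate 3 and 10.98 to 12.3 CPM in the others. Its exons share 122 bases with a protein-coding gene on the opposite strand. Adamts13, the protease of von Willebrand factor, had 1 read in all.

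The gelatinases cut denatured collagen and basement membrane. Mmp2 was the most abundant MMP, at 218, 205 and 309.5 CPM in wild type, against 254, 379.7, 351 and 335 CPM in overexpression. Overexpression replicates 2 to 4 lay above every wild type library and replicate 1 among them. Its log2 fold change was 0.43 ± 0.18 (SE, adjusted p = 0.235) with all libraries and 0.54 ± 0.15 without replicate 1 (adjusted p = 0.0544). Without replicate 1 it was called with library totals only, no filter, DESeq2 and limma-voom. Mmp9, the gelatinase of neutrophils and macrophages, went the other way, at 11.7, 8.33 and 3.69 CPM in wild type, against 1.999, 4.04, 3.31 and 3.72 CPM in overexpression. Wild type replicate 3 sat with the overexpression libraries (-1.28 ± 0.39, adjusted p = 0.110, or 0.0368 without wild type replicate 3 and 0.0457 with DESeq2). Neutrophil markers were near absent, with a summed level of 1.84 to 9.66 CPM, Elane at 0 and 2 of 9 genes tested. The 10 macrophage markers summed to 495 to 672 CPM in wild type and 582 to 799 CPM in overexpression, and 0 were called (2 at an unadjusted p under 0.05).

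**Figure D3:**
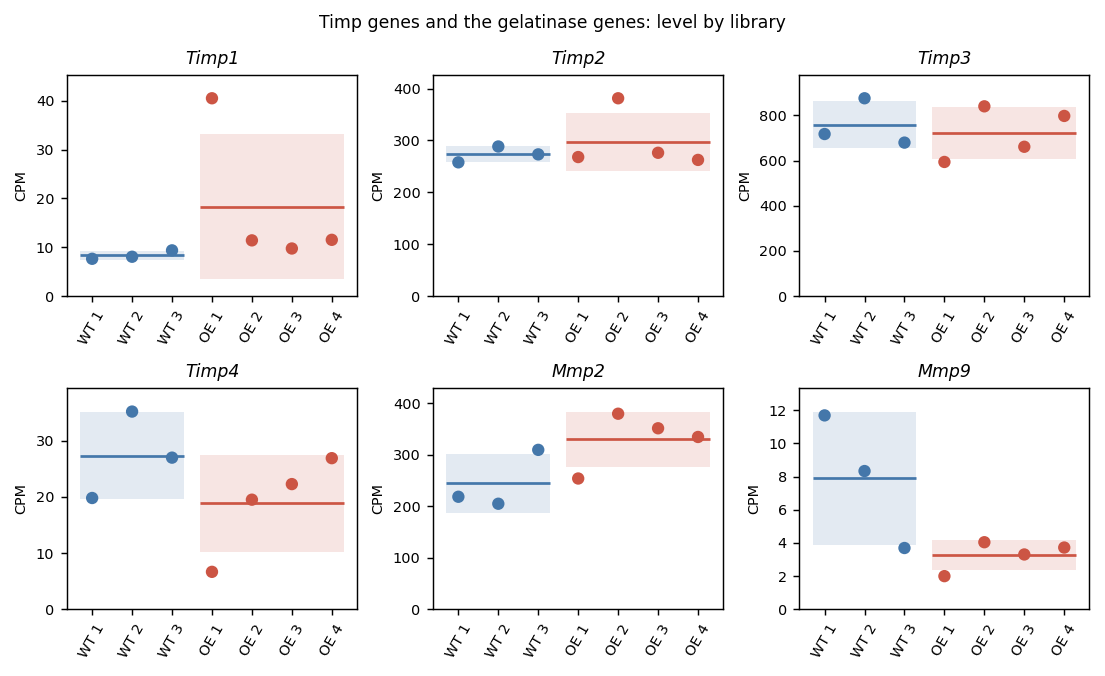
CPM (y axis, from 0) in each library for the 4 Timp genes, Mmp2 and Mmp9, wild type in blue and overexpression in red, with group means as lines and ± SD as bands. Overexpression replicate 1 is the highest library for Timp1 at 40.5 CPM and the lowest for Timp4 at 6.66 CPM.

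The membrane-type enzymes are anchored at the cell surface. Mmp14, the main activator of the Mmp2 precursor, stood at 27.5, 27.3 and 40.4 CPM in wild type, against 47.5, 40.7, 55.3 and 34.2 CPM in overexpression (0.48 ± 0.20, SE, adjusted p = 0.227). Mmp15 ran from 84.5 to 110.02 CPM in wild type and from 44.3 to 90.3 CPM in overexpression (-0.52 ± 0.22, adjusted p = 0.248). Mmp16 ranged from 9.04 to 15.3 and from 12.2 to 16.8 CPM. Mmp17 was at 0.866 to 2.89 CPM over all libraries, and Mmp24 and Mmp25 had 3 reads each in all.

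Mmp23, a short enzyme that lacks the usual pro-domain switch, was tight in wild type at 24.1, 23.2 and 23.8 CPM and higher in each overexpression library, at 42.7, 33.6, 26.4 and 32.7 CPM. The log2 fold change was 0.52 ± 0.16 (SE, adjusted p = 0.100, or 0.0792 without replicate 1). Mmp11, Mmp19, Mmp27 and Mmp28 had adjusted p of 0.574 to 0.845. Exons of Mmp11, Mmp19 and Mmp28 share 155, 789 and 466 bases with a protein-coding gene on the opposite strand. Without a stated strand setting, reads there may have been left out of the gene rows as ambiguous.

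Fibroblast markers, as the cells that make many of these genes, were read beside the set. The 10 fibroblast markers summed to 12255, 11592 and 16433 CPM in wild type, against 18428, 19504, 17955 and 16051 CPM in overexpression, with 9 of 10 positive, 0 called (5 at an unadjusted p under 0.05) and a median log2 fold change of 0.46. Wild type replicate 3, the highest of its group for these markers, was also the highest wild type library for 18 of the 36 tested genes, among them Mmp2, Adamts2 and Adamtsl2 but also Adamts19, Adamtsl5 and Adamts8, and the lowest for 10, among them Adamts1 and Timp3. Activated fibroblast markers summed to 187 to 245 CPM in wild type and 868 to 1837 CPM in overexpression. Only Acta2, smooth muscle actin, was called, rising from 24.1 ± 10.8 to 797.8 ± 161 CPM (SD; adjusted p = 1.37e-04). That mean lay not far below the sums of 896, 947 and 868 CPM in overexpression replicates 2 to 4. There the median of the 9 tested markers was 0.35, 0.23 and 0.14 above the wild type mean, on the log2(CPM + 2) scale. It was 1.82 in replicate 1. Of the 9 markers, 8 had a positive and 1 a negative log2 fold change. Smooth muscle and pericyte markers summed to 533 to 621 and 654 to 885 CPM, with 2 of 10 called higher. The part of these cells in the levels above was not tested.

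**Figure D4:**
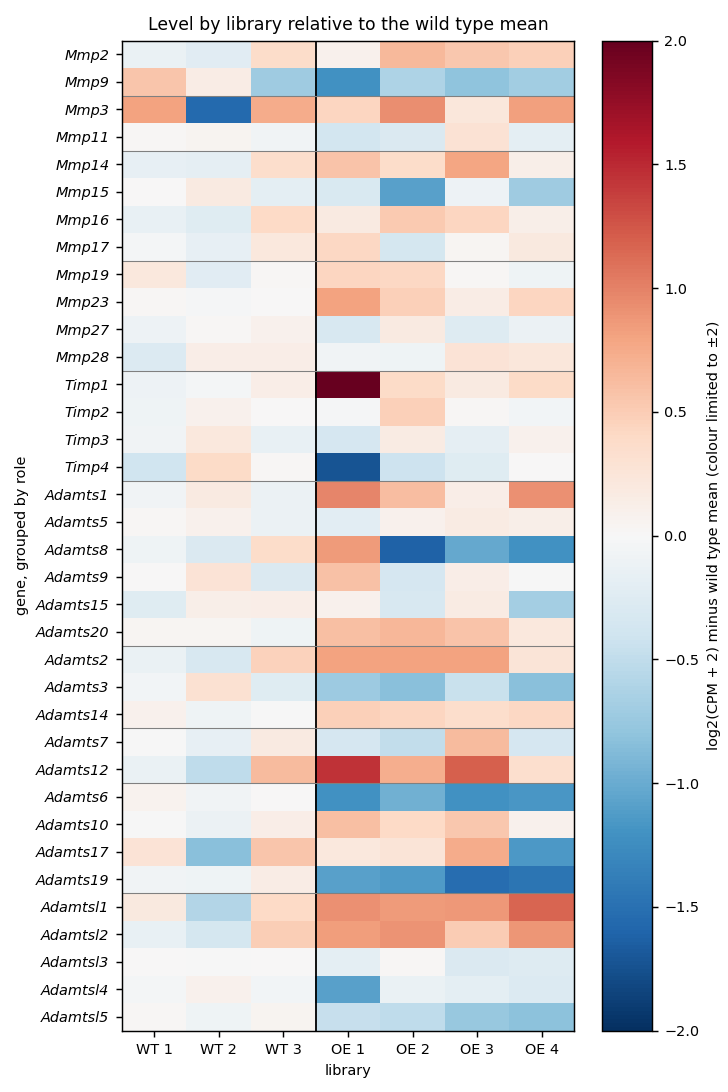
Level of the 36 tested genes (rows, grouped by role) in each library (columns), as log2(CPM + 2) minus the wild type mean, red above and blue below. Adamts6 and Adamts19 are blue in all 4 overexpression columns, while Timp1, Timp4 and Adamts8 are set apart by overexpression replicate 1.

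Among the inhibitors, Timp3 and Timp2 made up most of the Timp reads and did not pass. Timp3, which binds to matrix and also inhibits ADAMTS enzymes, stood at 718, 876 and 679 CPM in wild type, against 594, 840.2, 661 and 798 CPM in overexpression. The ranges overlapped almost fully, and the log2 fold change of -0.07 had a 95% interval from -0.41 to 0.28. Timp2, an inhibitor that also helps Mmp14 activate Mmp2, stood at 258, 288 and 273 CPM in wild type, against 268, 381, 276 and 263 CPM in overexpression, replicate 2 being set above the rest (0.12, 95% interval -0.20 to 0.45).

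Timp1, the inhibitor most often raised in cardiac fibrosis, stood at 7.63, 8.05 and 9.36 CPM in wild type, against 40.5, 11.4, 9.74 and 11.5 CPM in overexpression. All 4 overexpression libraries were above wild type, but replicate 1 was far above the other 3. The log2 fold change was 1.15 ± 0.53 (SE, adjusted p = 0.287) with it and 0.39 ± 0.17 (adjusted p = 0.209) without it. Activated fibroblast markers had a median of 1.82 above the wild type mean in replicate 1 and 0.14 to 0.35 in the others, on the log2(CPM + 2) scale. Epicardial markers summed to 869 CPM there and to 436 to 589 CPM in the other 6 libraries. The part of these cells in the Timp1 value was not tested.

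Timp4, the inhibitor known for its high level in heart, stood at 19.8, 35.2 and 27.0 CPM in wild type, against 6.66, 19.5, 22.3 and 26.9 CPM in overexpression. Replicate 1 was again the extreme, here the lowest (-0.54 ± 0.41, SE, adjusted p = 0.515, and -0.24 ± 0.21 without it). Timp1, Timp3 and Timp4 each lie inside a synapsin gene, on the opposite strand. Syn2, around Timp4, held 234, 257 and 229 reads in wild type and 77, 145, 104 and 192 in overexpression, lowest in the same library as Timp4. Their exons share 90 bases, and without a stated strand setting reads there cannot be assigned. Timp3 and Syn3 share 1733 exon bases, and Syn3 held 7 to 23 reads per library. That count cannot show whether Timp3 lost reads there, since shared reads may be counted for neither gene.

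Per length of annotated exon, the summed RNA of the Timp genes was above that of the Mmp genes in every library. The comparison is of RNA, not of protein or activity, and depends on the annotated lengths. Summed CPM per kilobase of Timp over Mmp genes gave a ratio of 1.38, 1.79 and 1.16 in wild type and 1.41, 1.32, 1.04 and 1.22 in overexpression, ranges that overlapped. In wild type the leading genes were Timp3 at 93.0 ± 12.8 CPM per kb (SD, n = 3), Mmp2 at 72.5 ± 16.9 and Timp2 at 70.1 ± 3.92, and the levels of Mmp2 and Timp2 were closer than the SD of Mmp2. Next came Adamts1 at 29.3 ± 3.27 and Mmp15 at 18.0 ± 2.37 CPM per kb. In overexpression Mmp2 led at 97.9 ± 16.0 CPM per kb (SD, n = 4), followed by Timp3 at 88.8 ± 14.2 and Timp2 at 76.2 ± 14.5, neighbours that lay within 1 SD of each other. By this level Adamts6 went from rank 20 of the 36 to rank 28 and Adamts19 from 23 to 31.

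**Figure D5:**
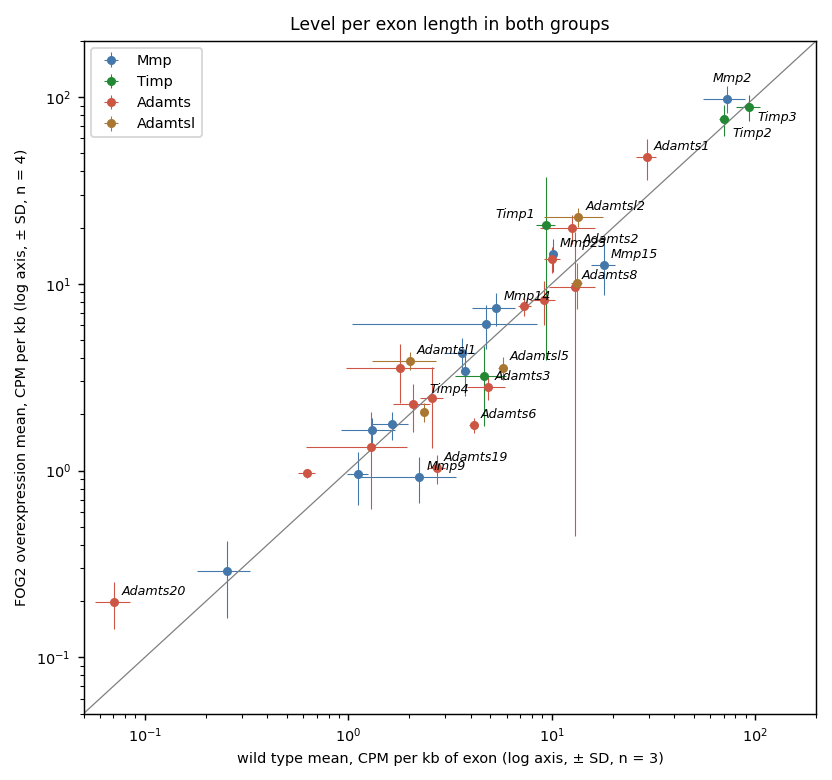
Mean level per kilobase of exon in wild type (x axis) and overexpression (y axis), both log axes, ± SD, for the 36 tested genes; the line marks equal levels. Adamts6 and Adamts19 lie below the line beyond their SD, and Timp2, Timp3 and Mmp2 lead both groups.

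The collagenases, the matrilysin and the metalloelastase were too low to be tested, as was the stromelysin Mmp10. A cluster of 10 Mmp genes on chromosome 9, from 7272514 to 7699585, holds Mmp13, Mmp12, Mmp1b, Mmp3, Mmp1a, Mmp10, Mmp8, Mmp27, Mmp20 and Mmp7. Mmp3 and Mmp27 passed the filter, and Mmp1a, Mmp1b and Mmp7 had 0 reads in all 7 libraries. Over the whole set, 12 of the 15 untested genes had reads, at most 60 in all libraries together and at most 2.22 CPM in one. Mmp13, the main interstitial collagenase of rodents, had 1 to 10 reads per library, and Mmp8, the neutrophil collagenase, 1 to 5. Mmp12, the elastase of macrophages, had 3, 5 and 4 reads in wild type and 0, 1, 2 and 0 in overexpression.

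Of the AP-1 factors, which are known to drive several of these cluster genes, 3 rose. These were Jun from 36.3 ± 2.28 to 73.1 ± 18.3 CPM (adjusted p = 0.0198), Fos from 8.497 ± 2.37 to 29.6 ± 14.9 (adjusted p = 0.0492) and Fosb from 0.410 ± 0.238 to 5.11 ± 3.04 (adjusted p = 0.00980). Fosb, with 1 to 5 reads per wild type library, passed the filter only through the overexpression group. Junb, Jund and Fosl2 were not called (log2 fold changes 0.44, 0.44 and 0.41, adjusted p = 0.459, 0.358 and 0.101), and Fosl1 was not tested. Jun, Fos and Fosb were the 3 genes called of 14 tested genes on a list of upstream signals. The AP-1 letters TGANTCA, searched on both strands in the 250 bases before each RefSeq start, were found for 8 of the 10 cluster genes and for 0 of the 26 other matched genes of the set, where 6.75% of all stretches hold them. The 100 bases before the start are shown for 5 of the 8, with these letters in capitals. Of these 5 genes, 4 were too low to be tested and Mmp3 did not pass. Mmp12, Mmp1b and Mmp20, which hold the letters but are not shown, were also too low to be tested. Whether AP-1 factors act on these genes was not tested. The cluster genes without these letters were Mmp8 and Mmp27, and Mmp27 held 10 to 22 reads per library. All lie on the plus strand of GRCm38.p6, Mmp3 at chr9:7445722-7445821, Mmp13 at chr9:7272414-7272513, Mmp10 at chr9:7502242-7502341, Mmp1a at chr9:7464041-7464140 and Mmp7 at chr9:7691990-7692089.
Mmp3: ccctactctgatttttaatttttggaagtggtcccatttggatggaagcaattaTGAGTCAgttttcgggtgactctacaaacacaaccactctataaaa
Mmp13: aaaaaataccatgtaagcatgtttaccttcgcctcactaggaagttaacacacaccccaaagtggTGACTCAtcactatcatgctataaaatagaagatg
Mmp10: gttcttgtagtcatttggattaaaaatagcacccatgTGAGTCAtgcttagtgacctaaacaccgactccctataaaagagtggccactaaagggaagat
Mmp1a: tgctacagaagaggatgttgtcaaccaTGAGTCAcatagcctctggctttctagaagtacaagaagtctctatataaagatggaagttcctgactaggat
Mmp7: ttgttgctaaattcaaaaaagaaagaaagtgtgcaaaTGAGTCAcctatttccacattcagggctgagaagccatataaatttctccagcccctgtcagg
The first letter of the match lies 46, 35, 63, 73 and 63 bases before the start in the same order. Mmp3 stood at 12.6, 0.847 and 12.1 CPM in wild type, against 9.33, 14.0, 7.83 and 12.8 CPM in overexpression, with wild type replicate 2 far below the rest. Its log2 fold change was 0.36 ± 0.63 (SE, adjusted p = 0.802), and -0.17 ± 0.25 without that library.

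The other genes of the pathway came from lists of activators, the plasminogen system, further proteases and inhibitors, substrates and upstream signals. Of 108 tested, 8 rose (1.55% of all genes) and 4 fell (3.29% of all genes), with a median log2 fold change of 0.32. Counted among those that rose, Ncan and Fosb passed the filter on low counts only through the overexpression group, where they were higher. Pzp, counted among those that fell, passed only through the wild type group, where it was higher. Without overexpression replicate 1, 14 rose and 8 fell (3.74% and 4.99% of all genes). Leaving out wild type replicate 1 or 2 gave 4 higher and 0 lower, with 6 and 2 without wild type replicate 3, and 5 and 2 without overexpression replicate 3.

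Among 18 tested activators and surface regulators, Sdc4, a heparan sulphate proteoglycan at the cell surface, rose from 60.5 ± 12.3 to 131 ± 24.2 CPM (SD; 1.11 ± 0.18, SE, adjusted p = 0.00917). Bsg, basigin, an inducer of MMP production, fell from 564 ± 30.0 to 411 ± 16.3 CPM (-0.46 ± 0.10, adjusted p = 0.0287). Furin, which activates membrane-type MMPs and ADAMTS enzymes, had a log2 fold change of 0.15 ± 0.13, and Reck, a membrane-anchored MMP inhibitor, 0.32 ± 0.12 (adjusted p = 0.590 and 0.191). Of 8 tested plasminogen system genes 0 were called, and 1 had an unadjusted p under 0.05 (S100a10, a plasminogen receptor subunit, higher).

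Ctsd, the lysosomal protease cathepsin D, fell from 779 ± 26.4 to 525 ± 40.5 CPM (-0.57 ± 0.10, SE, adjusted p = 0.0157), and with Bmp1 was one of 2 called among 23 further proteases. Of 15 other inhibitors, Pzp, a broad protease trap related to alpha-2-macroglobulin, fell from 47, 35 and 34 reads to 9, 0, 2 and 1 (adjusted p = 0.0131), and passed the filter only through the wild type group. Tfpi, the inhibitor of tissue factor, fell from 231 ± 30.8 to 130 ± 30.9 CPM (-0.83 ± 0.20, adjusted p = 0.0476). Wfdc1, a small secreted inhibitor-like protein, rose from 17.5 ± 4.24 to 31.6 ± 2.37 CPM (0.84 ± 0.16, adjusted p = 0.0204).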

How the data were processed

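The deposited table holds whole-number counts per gene for 7 libraries, with 1 column per library mapped by name. STAR, HTSeq 0.6.0, DESeq2 and the mm10 build are named in the submitters' processing notes, with no roles stated. Annotation and strand setting are not given in the labels. One label says polyA selection and the protocol names removal of ribosomal RNA. Rows naming no gene were left out, and 27.8% to 33.1% of each library's reads lay in gene rows.

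Counts of the whole table were filtered with filterByExpr (minimum count 10, total 15), scaled with TMM and passed to the quasi-likelihood F test of edgeR 4.0.16 under R 4.3.3, with robust dispersions, two-sided, with Benjamini-Hochberg adjustment over all tested genes and a threshold of 0.05. SE is the log2 fold change over the root of F, and 95% intervals use the fit's degrees of freedom. The test was checked on counts simulated from its own fitted dispersions, with genes drawn independently and no library set apart. That check does not cover a library such as overexpression replicate 1. Alternatives were RLE, upper quartile and totals-only scaling, 2 other filters, DESeq2 1.42.0, limma-voom (limma 3.58.1), a fit without robust dispersions, a replicate block, a Y-linked covariate and each library left out. Lengths and positions came from GENCODE M21 (GRCm38, the mm10 assembly), which matched all 51 symbols. Since no label ties libraries to separate animals, p-values reflect library-to-library spread that may be technical.

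The members and lists were chosen with earlier results of these data known. Values per library are given for members called in either fit, Timp genes and tested members with a mean of at least 10 CPM; for lists, genes called in either fit, up to 6 a list. Mmp3, Mmp9, Adamts14, Adamts20, Furin, Reck, S100a10, Junb, Jund, Fosl1, Fosl2 and the low-count genes were named after their values were seen.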

Additional observations from a re-analysis of the deposited data

Results flagged for a closer look

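In 6 of the 32 genes examined, 1 of the 4 overexpression libraries lay further from the rest than Dixon's 95% limit, where chance gives about 1 in 20. Replicate 1 was high for Adamts8 at 107.8 CPM (next 28.0 CPM) and for Timp1 at 40.5 CPM (next 11.5 CPM). Replicate 2 was high for Timp2 at 381 CPM, where the next library held 276 CPM. Replicate 3 was high for Adamts7 at 26.1 CPM (next 12.3 CPM) and low for Adamtsl2 at 150.1 CPM, where the next held 189 CPM. Adamts2 was low in replicate 4 at 137 CPM, with the other 3 between 200.4 and 201 CPM.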

How the results depend on the processing

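Of 573 log2 fold changes of 32 named genes under the alternatives, 515 kept their direction and side of the threshold, 24 lost a call, 14 gained one and 20 changed sign, 0 of these for a called gene. Adamts6 and Adamts19 kept their call throughout. Genes of the set called higher numbered 1 with all libraries, 0 with RLE scaling, upper quartile scaling or no filter, 3 with library totals only and 4 with DESeq2 (0 to 3 with a library left out). Those called lower numbered 4, or 2 with library totals only (2 to 5 with a library left out). Without overexpression replicate 1, 0 were higher; this was 4 with totals only, 5 with DESeq2, 3 with limma-voom, and 1 with no filter, without robust dispersions, with the Y-linked covariate or in the libraries without Y-linked reads (0 to 5 with a further library left out), while the 5 lower were 4 to 6 with a further library left out. In that fit 2848 genes had an unadjusted p under 0.05. Pathway genes were 8 higher and 4 lower, against 16 and 2 with totals only, 19 and 7 with DESeq2, and 4 to 14 and 0 to 8 with a library left out. Library totals moved the median of all genes from 0.02 to 0.15, and over all genes gave 444 higher and 294 lower calls against 206 and 438.

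Signs turned for uncalled genes. Adamts17 (0.04) was -0.12 with limma-voom, -0.37 without Y-linked libraries and -0.32 to 0.38 with a library left out. Timp3 (-0.07) was 0.0605 with totals only, 0.13 without Y-linked libraries and -0.15 to 0.0491 with a library left out, and Adamts7 (-0.09) was 0.0302 with totals only and -0.45 to 0.0379. With a library left out Adamts5 ranged from -0.0147 to 0.12, Adamts9 from -0.079 to 0.28, Timp2 from -0.0217 to 0.17 and Mmp3 from -0.17 to 0.75, with -0.0845 without Y-linked libraries. The causes were not tested.

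Replicate numbers were not taken as pairs in the main fit. Deviations of same-numbered libraries correlated at 0.05, 0.03 and 0.06, and those of differently numbered libraries at -0.11 to 0.16. Correlations this small cannot decide whether the libraries were paired. With the replicate block the set had 1 higher (Adamts12, adjusted p = 0.0391) and 2 lower, and 1 higher and 3 lower without overexpression replicate 1; over all genes it made 129 higher and 253 lower calls.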

Other observations

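Mmp3 held 106 and 98 reads in wild type replicates 1 and 3 and 6 in replicate 2. In that library its neighbours Mmp13 and Mmp8 held 1 read each, against 9 or 10 and 3 or 5 in the other wild type libraries. Other genes of the cluster were not low there. Mmp12 held 3, 5 and 4 reads in wild type replicates 1 to 3, and Mmp27 held 18, 18 and 22. Adamts17 held 30 reads in wild type replicate 2 and 26 in overexpression replicate 4, and 78 to 116 in the other 5 libraries. No label separates these libraries from the rest of their groups. Wild type replicate 2 was also the lowest wild type library for 20 of the 36 tested genes and the highest for 10. It was the wild type library with Y-linked reads, at 3943.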
